A study of Danio rerio with 4 samples.

Results

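A set of 6 pigment cell genes, of the 8793 genes represented by a probe set with 1 symbol on the array, was compared between the brain of foggy mutant zebrafish embryos and that of wild-type embryos. They are the pteridine enzyme gene gch2, the purine enzyme gene impdh1b, the melanin genes dct and pmelb, and the neural crest regulators mitfa and sox10. They were taken by gene symbol, at every probe set, which gave 8 probe sets (2 each for gch2 and impdh1b and 1 for each of the others). The symbols were chosen with the mutant against wild-type differences of these same arrays already known, so the members' own differences are described below without a test. The data were 3 arrays labelled Foggy and 1 array labelled WT, all of embryonic brain RNA, and the labels give 36 h for the WT sample and 36 without a unit for the Foggy samples, read here as hours. The foggy locus encodes Spt5 (supt5h), which travels with RNA polymerase II and acts both in pausing and in elongation. The labels name neither the allele nor the strain, do not say how mutants were recognised, and do not say whether the 3 numbered Foggy samples came from separate clutches, so the spread between them may be technical.

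The pigment cells of the zebrafish body arise from the neural crest, an embryonic cell population that leaves the dorsal neural tube. Black melanophores make melanin from tyrosine inside melanosomes, yellow xanthophores make pteridines from GTP, and silvery iridophores stack crystals of purines, so purine and GTP synthesis feed the yellow and the silvery pigments. Sox10 is needed for crest cells to become pigment cells and switches on mitfa, and Mitfa, a transcription factor, is needed for melanophores. Melanin genes are also used by the retinal pigment epithelium, a layer of the eye that does not come from the crest. The labels do not say whether skin or eyes were removed from the brain.

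Values are intensities on the authors' linear scale, scaled by them to a common mean, so a difference shows how a transcript changed against the bulk of the others. Medians over all probe sets lay between 65.3 and 66.0 in the 4 arrays. Differences are of log2(intensity + 16.252) and are the Foggy mean minus WT, so that a negative value means lower in Foggy. Folds are on the same scale and understate the change of weak signals. Probe sets under an intensity of about 27.5 on average were taken as dim and not tested, and all 8 probe sets of the 6 genes were above that limit. Of 21 brain marker genes on named probe sets, among them elavl3 and snap25a of neurons, 21 were above it as well. The supt5h probe set had intensities of 258, 245 and 254 in the Foggy arrays and 210 in the WT array.

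The pigment enzyme and melanosome genes were lower in Foggy brain, and the crest regulators differed less and in opposite directions. The mean log2 difference was -1.0 ± 0.0985 (SD over the 3 Foggy arrays) for gch2 and impdh1b at their brighter probe sets and -0.67 ± 0.0746 for dct and pmelb. For mitfa and sox10 it was 0.03 ± 0.0566, a mean of opposite differences (0.19 for mitfa and -0.14 for sox10). The median over all tested probe sets was 0.02. Because the members were picked on this contrast, no test of their differences is given.

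**Figure D1:**
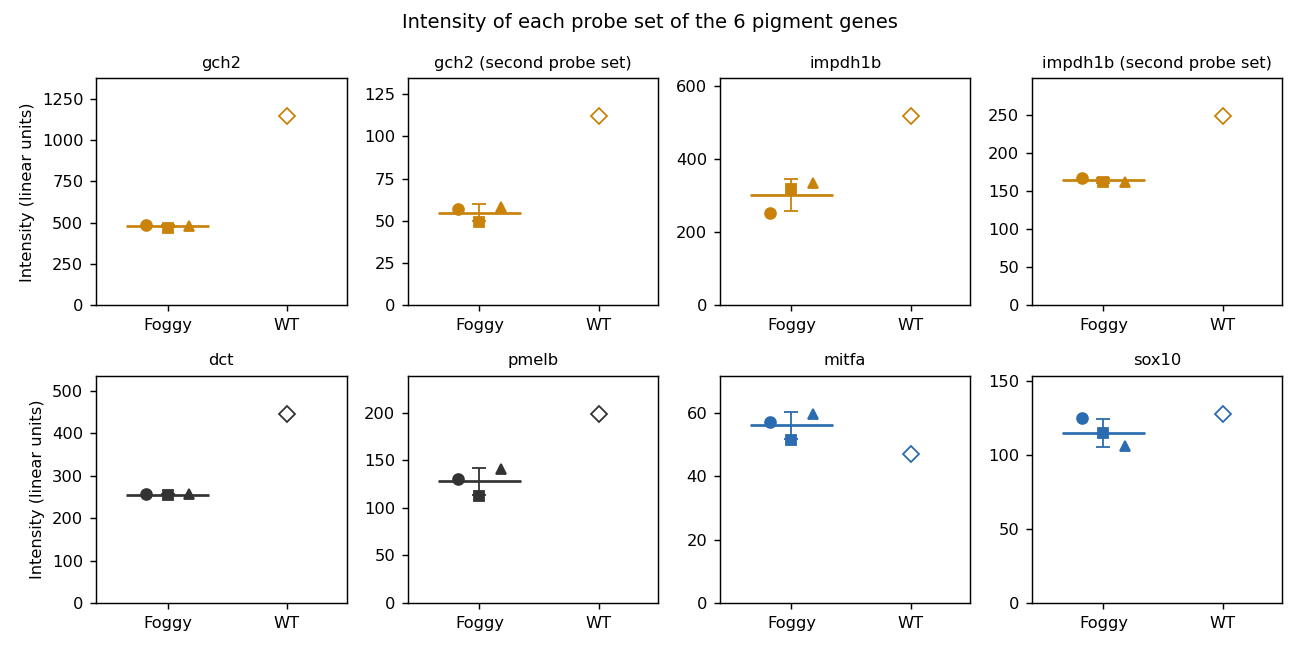
Intensity (linear units, axis from 0) of each probe set of the 6 genes, with the 3 Foggy arrays (filled circle, square and triangle for arrays 1, 2 and 3, with their mean as a line and SD as a bar) left of the single WT array (open diamond). The WT diamond lies above every Foggy point in 7 of the 8 panels, and in the mitfa panel it lies below them.

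The gene gch2 encodes a GTP cyclohydrolase, the enzyme that opens pteridine synthesis and, in zebrafish, is used as a marker of xanthophores and their precursors. Its brighter probe set had 484, 470 and 478 intensity units in the Foggy arrays and 1143 in the WT array. The Foggy arrays lay close together (SD 7.17 units), and all 3 lay under the WT value, as at 28.4% of all tested probe sets. The log2 difference was -1.23 (SE 0.0670), or 2.35-fold lower, and 49 of the 10851 tested probe sets lay further down. The second gch2 probe set read 56.9, 49.3 and 58.5 units in Foggy and 112 in WT. It pointed the same way with a smaller difference, -0.85 (SE 0.149). Both probe sets read 1 gene in the same RNA samples, so they are not replicates of each other.

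The gene impdh1b encodes an IMP dehydrogenase, which turns inosine monophosphate toward guanine nucleotides and so toward the GTP that gch2 uses. Mutations of the human counterpart are a cause of retinal degeneration, so the mammalian gene is also known for a role in photoreceptors. Its brighter probe set had 251, 318 and 334 units in the Foggy arrays and 517 in the WT array. Foggy array 1 was the lowest of the 3, with a log2 difference of -1.0 from WT, against -0.67 and -0.61 in arrays 2 and 3. The difference of the means was -0.76 (SE 0.133), and without Foggy array 1 it was -0.64. The second probe set had 168, 162 and 163 units in Foggy and 249 in WT, a difference of -0.55 (SE 0.0952). Foggy array 1 did not stand apart there: its log2 difference was -0.53, beside -0.57 and -0.57.

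The gene dct encodes dopachrome tautomerase, a melanin enzyme that acts after tyrosinase. It had 257, 254 and 256 units in the Foggy arrays and 446 in the WT array. These Foggy values were nearly identical (SD 1.43), and the log2 difference was -0.77 (SE 0.0796), or 1.70-fold lower. The gene pmelb is one of the zebrafish genes for Pmel, the protein whose fibrils hold melanin inside the melanosome. It had 130, 113 and 141 units in Foggy and 199 in WT. All 3 Foggy values lay under the single WT value, as at 28.4% of all tested probe sets. The Foggy arrays were further apart (SD 14.2) than for dct, and the log2 difference was -0.58 (SE 0.128).

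The regulator mitfa was the only one of the 6 genes with all Foggy arrays above WT, as they were at 36.2% of all tested probe sets. It had 57.1, 51.5 and 59.7 units in the Foggy arrays and 47.1 in the WT array, a log2 difference of 0.19 (SE 0.154). At 80.2% of the tested probe sets the difference was lower than that of mitfa. The regulator sox10, which is also expressed in glia and in the ear, had 125, 115 and 106 units in Foggy and 128 in WT. The first Foggy array lay almost at the WT value, and the log2 difference was -0.14 (SE 0.125). Both differences were about the size of their SE. The SEs of the 6 genes rest on the spread of the Foggy arrays, not on that of WT, and are not read as a test. Fewer cells of a type and less RNA per cell cannot be told apart in bulk RNA, for these genes and for those above.

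**Figure D2:**
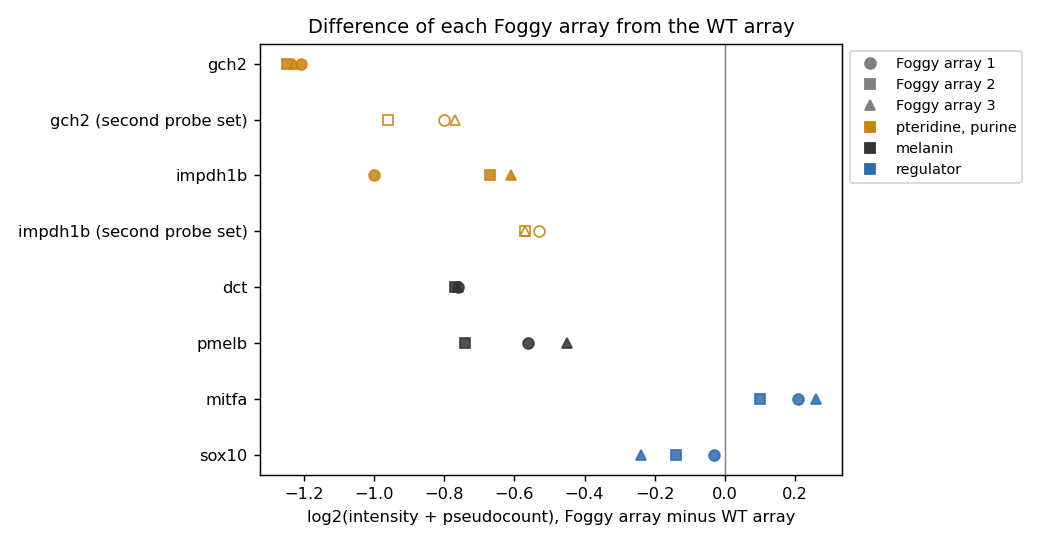
Difference of log2(intensity + pseudocount) of each Foggy array from the single WT array, with a row for each probe set (open symbols mark the second probe set of gch2 and of impdh1b). All points of gch2, impdh1b, dct and pmelb lie between -1.25 and -0.45, those of sox10 between -0.24 and -0.03, and those of mitfa between 0.10 and 0.26.

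All 3 Foggy arrays lay under WT at 7 of the 8 probe sets. Over all tested probe sets the 3 Foggy arrays lay under WT at 28.4% and above it at 36.2%, and nothing is read from the members' count against these shares. Set against each other within each Foggy array, the difference of gch2 at its brighter probe set was further down than that of dct. The gap was nearly constant, at -0.45, -0.48 and -0.46 on the log2 scale. At its second probe set gch2 differed from WT by -0.80, -0.96 and -0.77, and dct by -0.76, -0.77 and -0.76, so the gap was smaller there. At the brighter probe sets, the difference of gch2 exceeded that of impdh1b by an amount that varied more, -0.21, -0.58 and -0.62. The differences of impdh1b and dct could not be ordered there, at -0.24, 0.10 and 0.16 (impdh1b minus dct). At its second probe set impdh1b (-0.53, -0.57 and -0.57) lay less far under WT than dct in each Foggy array. At the brighter probe sets the enzyme pair lay below the melanin pair in every Foggy array, by -0.45, -0.21 and -0.31. When the pairs were averaged over all their probe sets in place of the brighter ones, gch2 and impdh1b came to -0.85 and dct and pmelb to -0.67. That average still holds the brighter gch2 probe set. At the second probe sets alone, gch2 differed by -0.85 and impdh1b by -0.55, beside -0.77 for dct and -0.58 for pmelb. No order of the pairs is read there. The melanin pair lay below the regulators by -0.75, -0.73 and -0.62. Between the regulators, the gap was -0.24, -0.24 and -0.50 (sox10 minus mitfa). All of these gaps share the same WT array, and none has a test here.

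**Figure D3:**
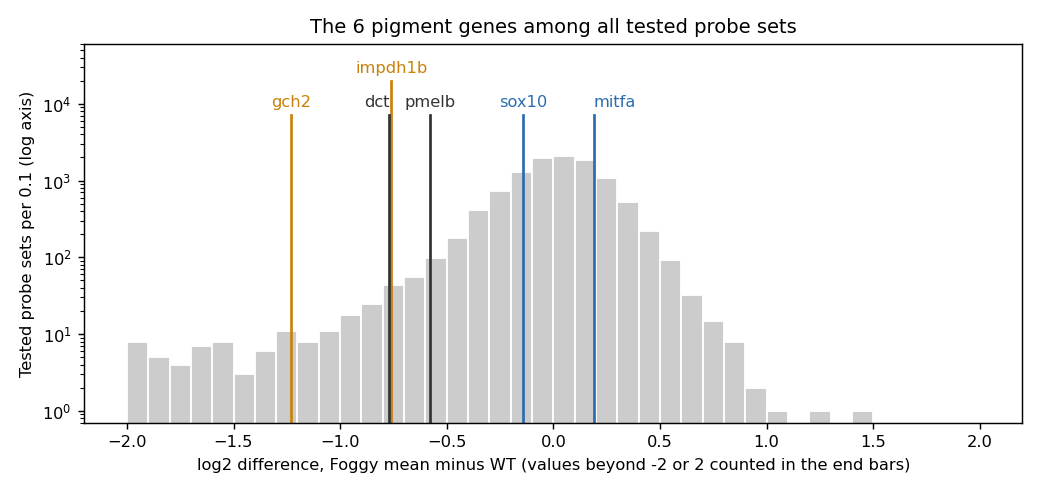
Histogram of the log2 difference (Foggy mean minus WT) over the 10851 tested probe sets, as counts per 0.1 on a log axis, with a line at the brighter probe set of each of the 6 genes. The lines of gch2 (-1.23), dct (-0.77), impdh1b (-0.76) and pmelb (-0.58) stand in the lower tail, while those of sox10 (-0.14) and mitfa (0.19) stand in the body of the histogram.

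By the distance between centred log2 profiles over the 4 arrays, the named gene nearest to gch2 was cmlc1, a myosin light chain gene of heart (distance 0.0313, log2 difference -1.21). Next came irg1l (distance 0.0800) and the fast muscle troponin gene tnnt3b (distance 0.0915). The nearest to impdh1b were hnrnpd (0.116), the glutamine synthetase gene glula (0.130) and elovl4b (0.143). Those nearest to dct were the collagen gene col5a2a (0.0540), ponzr1 (0.0546) and opa3 (0.0572). For pmelb they were hspa4l (0.0435), the dihydropteridine reductase gene qdpra (0.0438) and nucb2b (0.0574). The nearest to mitfa were srpk1a (0.0122), znf1065 (0.0152) and frg1 (0.0250), and to sox10 tnn (0.0205), isl2a (0.0218) and mrpl30 (0.0252). With 4 arrays, such a distance mostly ranks genes by the size of the gap between Foggy and WT.

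Other genes linked to the same pathways were read from 5 lists of pteridine genes, purine enzymes, melanin and melanosome genes, organelle trafficking genes, and crest and pigment regulators. Like the members, these lists were chosen with earlier results of these data known, so their counts are a description. Of 166 genes written in the lists besides the 6 members, 83 were on a named probe set, 18 of these were dim, and 65 were tested. By limma's test with Benjamini-Hochberg adjustment 4 of the 65 fell (6.15%, beside 3.74% of all 6852 named genes tested) and 1 rose (1.54%, beside 2.19%), while 60 did not pass. Over all tested probe sets, named or not, 3.14% were called lower and 2.36% higher. The fall of asip2b among these rests on a gene that was above the dim limit in WT alone. Their median log2 difference was -0.03, beside 0.02 over all tested named genes. Without Foggy array 1, many more probe sets of the whole array were called in both directions, so a call gained there is not particular to its gene. More of these 65 genes were called there too. With the WT spread taken as 2 times that of Foggy, 0 passed in either direction.

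None of the 4 other pteridine genes tested passed limma's test, and 1 had an unadjusted p under 0.05. That gene was qdpra, which regenerates tetrahydrobiopterin. It had 25.2, 21.4 and 29.7 units in Foggy and 44.3 in WT, with a log2 difference of -0.54 (SE 0.183, adjusted p = 0.123). Its Foggy mean of 25.4 lay under the limit for dim probe sets, so qdpra was tested only because of its WT value. Nothing is read from its difference. The gene gchfr, for a protein that regulates GTP cyclohydrolase in mammals, differed by 0.21 (adjusted p = 0.603). The ubiquitin ligase gene mycbp2, whose zebrafish mutant has altered pteridine pigment, differed by 0.10 (adjusted p = 0.727). Neither gchfr nor mycbp2 encodes a pteridine enzyme, and the list median of 0.00 includes both.

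Of 11 other purine genes, 1 fell, 0 rose and 10 did not pass limma's test, with 2 lower and 0 higher at an unadjusted p under 0.05. The median of the list was -0.13, beside 0.02 over all tested named genes. The gene that fell, atic, encodes the enzyme of the last steps to inosine monophosphate. It had 155, 165 and 150 units in Foggy and 215 in WT, a log2 difference of -0.42 (SE 0.103, adjusted p = 0.0437). It passed in 7 of 11 alternative settings, with adjusted p-values between 0.00245 and 0.915, and not without Foggy array 3 (adjusted p = 0.0770). The gene paics, for an earlier step of the same route, had 556, 491 and 539 units in Foggy and 620 in WT (log2 difference -0.23, adjusted p = 0.148). It passed in 1 of 11 alternative settings, without Foggy array 1 (adjusted p = 0.00171). The salvage enzyme gene hprt1 differed by -0.26 (adjusted p = 0.352). The paralog impdh2, which encodes the second IMP dehydrogenase type, had 93.8, 75.9 and 84.6 units in Foggy and 99.0 in WT. Its log2 difference was -0.19 (adjusted p = 0.494), beside the -0.76 of impdh1b. Whether those paralogs differ in their change was not tested.

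The melanin list had few readable genes besides dct and pmelb. The gene tyr, for tyrosinase, which starts melanin synthesis, was dim, at 13.8, 8.12 and 12.9 units in Foggy and 20.4 in WT, and was not tested. The gene mc1r, for the melanocortin receptor that tunes melanin in melanophores, was dim too, at 2.98, 3.20 and 1.87 units in Foggy and 18.5 in WT. The precursor gene of its hormone, pomca, had 6.23, 8.60 and 3.36 units in Foggy and 22.6 in WT. The 3 dim genes lay lower in each Foggy array than in WT, as did 28.4% of all tested probe sets. Their intensities are too low for a fold, and no direction is read from them. The 1 gene tested was asip2b, of the agouti family of melanocortin antagonists, with 26.4, 22.6 and 23.7 units in Foggy and 52.6 in WT. Its log2 difference was -0.77 (SE 0.171, adjusted p = 0.0292). All 3 Foggy values lay under the limit for dim probe sets, so asip2b was tested only because of its WT value, and its call supports nothing here. Without the filter on dim probe sets it did not pass (adjusted p = 0.0733, between 0.00331 and 0.784 over 11 alternative settings).

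None of the 26 organelle trafficking genes passed limma's test, with 1 lower and 2 higher at an unadjusted p under 0.05. These genes build and move lysosome-related organelles, melanosomes among them, and most serve all cells. Their differences ran from -0.29 to 0.29 with a median of 0.01. The ends of that range were dtnbp1a (-0.29, adjusted p = 0.241), for a subunit of a complex that sorts cargo to melanosomes in mammals, and vps33a (0.29, adjusted p = 0.260), for a tethering protein of vacuolar sorting. The gene bloc1s4, of the same sorting complex as dtnbp1a, differed by 0.28 (adjusted p = 0.229).

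Of 23 other crest and pigment regulators, 2 fell, 1 rose and 20 did not pass, with a median of 0.01. The gene tfap2a, a crest transcription factor gene that zebrafish melanophores need, had 1288, 1208 and 1224 units in Foggy and 1565 in WT. It fell by 0.33 on the log2 scale (SE 0.0641, adjusted p = 0.0163, between 9.18e-08 and 0.640 over 11 alternative settings, 9 of which passed). Its relative tfap2b had 590, 610 and 582 units in Foggy and 713 in WT and did not pass (-0.26, adjusted p = 0.0585). It passed without Foggy array 1 (adjusted p = 9.15e-04) and under cyclic loess (adjusted p = 0.0418). The gene csf1b encodes a ligand of the receptor that xanthophores depend on. It had 33.2, 38.8 and 26.4 units in Foggy and 66.8 in WT, close to the limit for dim probe sets, and fell by 0.77 (SE 0.185, adjusted p = 0.0413, between 0.00341 and 0.898 over 11 alternatives, 7 of which passed). The receptor gene csf1ra had 32.1, 25.8 and 26.4 units in Foggy and 29.0 in WT, with overlapping groups (adjusted p = 0.946).

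The gene that rose in that list was dlx2a, a homeobox gene of forebrain and of crest, with 392, 384 and 399 units in Foggy and 272 in WT (log2 difference 0.50, SE 0.0761, adjusted p = 0.00451). It is on the brain marker list as well, and passed in 9 of 11 alternative settings (adjusted p between 1.95e-06 and 0.315). The largest differences in that list that did not pass were those of tfe3a and pax7a. The Mitf relative tfe3a had 32.1, 43.5 and 42.4 units in Foggy and 22.0 in WT, a log2 difference of 0.53 (adjusted p = 0.134). Its WT value lay under the limit for dim probe sets, so tfe3a was tested only because of its Foggy values. Nothing is read from the difference of tfe3a. The xanthophore factor gene pax7a differed by -0.36 (adjusted p = 0.307). The other tested probe set of pax7a did not point the same way and did not pass. Among early crest genes, named after their values were seen, foxd3 differed by 0.14 (adjusted p = 0.466), snai2 by 0.17 (adjusted p = 0.305) and crestin by -0.05 (adjusted p = 0.888). The other tested probe sets of snai2 did not point the same way as its brightest and did not pass. The receptor genes kita of melanophores (22.5, 19.5 and 17.1 units in Foggy and 20.8 in WT) and ednrba of iridophores (26.8, 17.7 and 26.6 units in Foggy and 40.3 in WT) were dim.

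**Figure D4:**
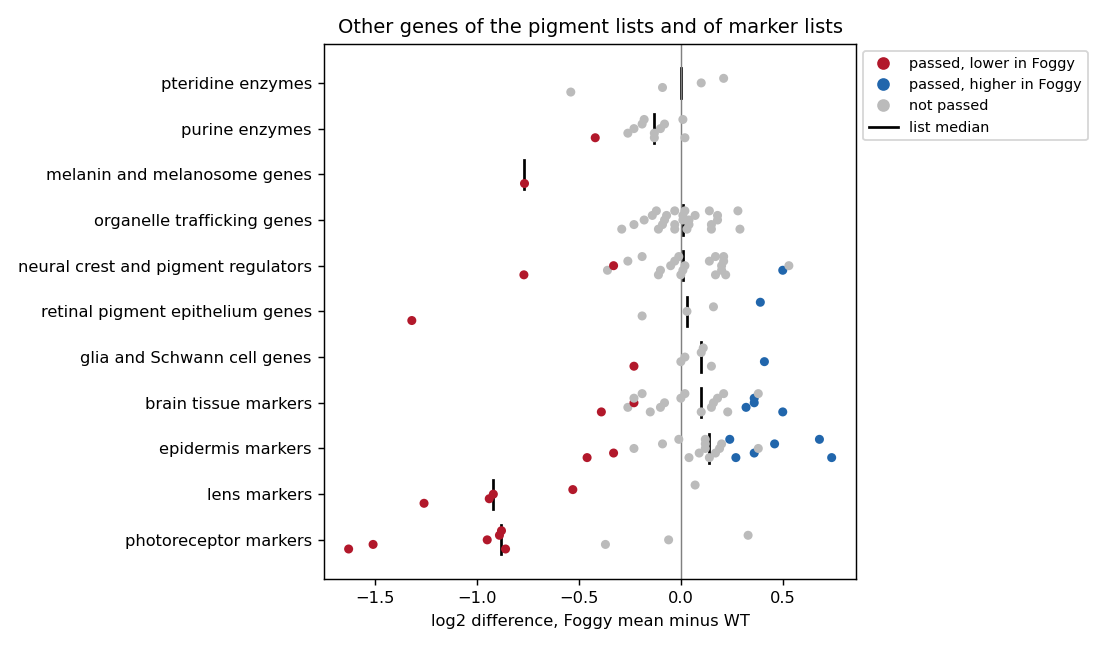
Log2 difference (Foggy mean minus WT) of the tested genes of the 5 pigment lists, without the 6 members, and of 6 marker lists, each gene at its brightest tested probe set. Red points passed as lower, blue points passed as higher, grey points did not pass, and a black bar marks the list median. The medians of the lens list (-0.92) and the photoreceptor list (-0.88) lie far to the left. Those of the pteridine (0.00), trafficking (0.01) and regulator (0.01) lists lie at or near 0, and that of the purine list at -0.13. The bar of the melanin list (-0.77) is the single gene asip2b, which was above the dim limit in WT alone.

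Most tested genes of the lens and photoreceptor lists fell in Foggy, while in the pigment epithelium list rpe65a fell and bhlhe40 rose. These lists were also chosen with earlier results of these data known, so their counts are a description. Over all named genes tested, 3.74% passed as lower and 2.19% as higher. The gene rpe65a, whose product regenerates visual chromophore in the pigment epithelium, had 55.0, 48.7 and 52.6 units in Foggy and 155 in WT at its brighter probe set. It fell by 1.32 on the log2 scale (SE 0.142, adjusted p = 5.21e-04) there and by 0.81 (adjusted p = 0.0203) at the other probe set. Of 5 tested genes of the pigment epithelium list 1 fell (rpe65a), 1 rose (bhlhe40, a clock-related transcription factor gene, 0.39, adjusted p = 0.0287) and 3 did not pass. The median of the list was 0.03. The call of bhlhe40 was lost in 4 of 11 alternative settings (adjusted p between 3.63e-04 and 0.779), among them without Foggy array 2 (0.0618). The list's summed intensity was 972 to 1119 in Foggy and 1052 in WT. Most of that sum came from bhlhe40 (260, 273 and 269 units in Foggy, 200 in WT) and otx2b (513, 501 and 409 units in Foggy, 421 in WT). The sum therefore says little about rpe65a. The gene otx2b is on the brain marker list as well, so neither the sum nor the median of the list is particular to pigment epithelium. The gene otx2b, for a regulator of forebrain and eye, differed by 0.16 (adjusted p = 0.474). In this list 2 genes were dim, among them tyr. Of 5 lens genes 4 fell and 0 rose (summed intensity 2963 to 3170 in Foggy and 5122 in WT). The lens genes that fell were bfsp2 (-1.26), crygmxl2 (-0.94), crybb1 (-0.92) and cryba4 (-0.53). Of 9 genes of the photoreceptor list 6 fell and 0 rose (summed intensity 1237 to 1383 in Foggy and 2089 in WT). These 6 were gngt2b (-1.63), opn1sw1 (-1.51), opn1sw2 (-0.95), gnat1 (-0.89), rlbp1a (-0.88) and rbp4l (-0.86). That list is not limited to photoreceptors: rlbp1a is a gene of the pigment epithelium, but was not counted in the pigment epithelium list. The second tested probe set of gnat1 did not pass. At an unadjusted p under 0.05, 0 genes of the lens list and 1 gene of the photoreceptor list were higher. The lens chaperone gene cryaa (0.07, adjusted p = 0.884) and the photoreceptor factor genes crx (0.33, adjusted p = 0.0620) and nr2e3 (-0.06, adjusted p = 0.927) did not pass. The call of crx was gained without Foggy array 1 (adjusted p = 4.63e-05). In the lens list 1 gene was dim and in the photoreceptor list 7 genes were dim. The part of eye tissue in the differences of dct, pmelb and impdh1b was not tested.

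Among markers of skin, more passed as higher than as lower. The skin, glia and brain lists were chosen with earlier results of these data known as well. Nothing is read from their counts against the shares over all named genes. Of 21 epidermis genes, 6 rose, 2 fell and 13 did not pass, with a median of 0.14 and a summed intensity of 38796 to 40387 in Foggy and 34752 in WT. The keratin gene krt97 rose by 0.74 (adjusted p = 1.52e-04) and the annexin gene anxa1c by 0.68 (adjusted p = 4.10e-04). The keratin genes krt15 and krt17 fell, with differences of -0.46 (adjusted p = 0.0150) and -0.33 (adjusted p = 0.0287), and the call of krt17 was lost in 5 of 11 alternative settings (adjusted p between 9.68e-05 and 0.779), among them without Foggy array 2 (0.0593) or 3 (0.0588). The genes of the glia and Schwann cell list moved singly, and its genes fabp7a and gfap are on the brain marker list as well. Of 7 tested, 1 rose (pou3f1, 0.41, adjusted p = 0.00647), 1 fell (fabp7a, -0.23, adjusted p = 0.0496) and 5 did not pass, among them the myelin gene mbpb (0.15, adjusted p = 0.388). The fabp7a call was lost in 7 of 11 alternative settings (adjusted p between 4.39e-06 and 0.962), among them without Foggy array 2 (0.134) or 3 (0.268). Of the 21 brain marker genes, 4 passed limma's test as higher, 2 as lower and 15 did not pass. Beside the counts of the skin, glia and brain lists, 2.19% of all named genes tested passed as higher and 3.74% as lower. The part of skin and glia in the differences of the pigment genes was not tested.

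A single WT array stands behind every difference, so how far wild-type brains vary was not measured, and the number of arrays limits the precision.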

How the data were processed

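Total RNA of embryonic brain from 3 Foggy samples and 1 WT sample was measured on an Affymetrix zebrafish array of 15617 probe sets. The authors deposited 1 table of intensity values on a linear scale. How these were summarised and background-corrected is not stated in the labels. Trimmed by 2% at each end, every array had a mean of 150.03, so no further scaling was applied.

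Log2 was taken of intensity plus 16.252 (the 20th percentile of the table). After leaving out 115 control probe sets and 4651 dim ones (mean log2 under the 30th percentile), 10851 remained for limma 3.58.1 under R 4.3.3 (lmFit, eBayes with a variance trend). Tests were two-sided, with Benjamini-Hochberg adjustment across the 10851 and 0.05 as threshold. The spread comes from the Foggy arrays alone (2 residual and 7.89 prior degrees of freedom), and WT is assumed to vary like them. Reassigning the 4 arrays could reach no p under 0.25.

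Symbols came from the platform annotation, updated by gene number with RefSeq (GRCz12tu). Symbols were single for 10802 probe sets, several for 135 and missing for 4680. A list gene is read at its brightest tested probe set. The 6 members and the lists were chosen with earlier results of these data known. Genes to name were the members, up to 6 passing and 3 non-passing genes with the largest differences in each list, and the 3 nearest profiles of each member. Not every gene under that rule is printed. The genes csf1ra, foxd3, snai2, crestin, kita, ednrba, tyr, mc1r, pomca, elavl3, snap25a and supt5h are outside that rule and were named after their values were seen. Alternatives were pseudocounts of 1 and 64, no dim filter, quantile, cyclic loess and median scaling, no variance trend, a WT spread 2 times that of Foggy, and each Foggy array left out.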

Additional observations from a re-analysis of the deposited data

How the results depend on the processing

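No paired analysis was possible because the WT group has 1 array and shares fewer than 2 replicate numbers with Foggy. Without the variance trend, 137 probe sets were lower and 27 higher, in place of 341 and 256, and 1 and 0 of the other pigment genes, in place of 4 and 1. With the WT spread 2 times that of Foggy these were 44 and 3 probe sets, and 0 and 0 genes. Without a dim filter 129 probe sets were higher and 1 other pigment gene was lower. Leaving out each Foggy array gave 348 to 878 lower and 218 to 1186 higher probe sets, and 3 to 7 lower and 1 to 7 higher pigment genes; the high ends came without Foggy array 1. The mean difference of gch2 and impdh1b was -0.85 over all their probe sets, in place of -1.0, and -1.04 to -0.94 with a Foggy array left out. That of dct and pmelb was -0.57 with a pseudocount of 64, in place of -0.67, and -0.71 to -0.63 with an array left out. That of mitfa and sox10 was 0.00 to 0.05. The cause of these shifts was not tested. Under the scalings tried, each of the 6 genes kept its sign. They kept it under the other pseudocounts and left-out arrays too, but those settings could not change it. For each gene all 3 Foggy arrays lay on the same side of WT. Signals near the dim limit, as for asip2b, csf1b, qdpra and tfe3a, limit what can be read.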
